A study of Mus musculus with 468 samples.

Results

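Interferon-high libraries were the 47 adipose RNA sequencing libraries with the most Isg15 transcript, 10.04% of all libraries of the series, and they were compared over all other genes with every library below the median Isg15 level. They were selected on Isg15 as CPM, its count divided by the total count of the library and scaled to 1000000. The libraries between both groups were kept apart and used as a separate set of mice. The groups were therefore made from a measured transcript and were not a treatment, so that the Isg15 values are a description, and every test below asks which other genes varied with Isg15 among these mice.

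All mice came from the Diversity Outbred stock, in which the genomes of several inbred founder strains are mixed so that nearly every animal has its own genotype. In both groups all animals were fed the same diet, rich in fat (45 percent) and sugar, and the samples held adipose tissue, which the methods of the study describe as gonadal fat. There was 1 library for each animal, so that animal and assay differences cannot be told apart, and the labels give neither sex nor batch. Total expected counts lay between 36.3 M and 119.02 M in the interferon-high libraries (median 80.4 M) and between 46.98 M and 137.76 M in the libraries below the median (median 82.5 M). Adipocyte markers were present throughout. Adipoq (adiponectin) was at 594.6 to 3888 CPM and Plin1 (perilipin, the coat of the lipid droplet) at 620.4 to 2441 CPM over all libraries.

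Interferons are secreted proteins that warn cells of infection. Type I interferons act through a receptor, Janus kinases and transcription factors that bind a DNA element in front of their target genes, and interferon gamma acts through a receptor of its own. ISG15, one of these targets, is a small ubiquitin-like protein that a dedicated enzyme chain attaches to other proteins and that USP18 removes. In fat, immune cells in the stroma as well as adipocytes can respond to interferons.

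The promoters of some of these genes are printed first to show this DNA element. Only promoters with a match to it are printed, and many of these genes held none, as counted below. Each line is a stretch upstream of a gene start in the RefSeq promoter table (GRCm38.p6), written 5′ to 3′ on the strand of the gene, with positions counted from the gene start. Capitals mark the core of the interferon-stimulated response element, searched as GAAANNGAAA and on the other strand as TTTCNNTTTC, with overlapping matches joined.
Isg15, chr4:156200835-156200936, minus strand, match at -78 to -57: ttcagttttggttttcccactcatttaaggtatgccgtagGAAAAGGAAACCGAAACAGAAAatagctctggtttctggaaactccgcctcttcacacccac
Ifit1, chr19:34640745-34640853, plus strand, matches at -104 to -76: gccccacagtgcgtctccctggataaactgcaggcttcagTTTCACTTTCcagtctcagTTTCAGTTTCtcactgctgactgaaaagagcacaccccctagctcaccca
Oas1a, chr5:120907526-120907585, minus strand, match at -20 to -5: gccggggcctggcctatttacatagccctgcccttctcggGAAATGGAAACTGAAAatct
Bst2, chr8:71537547-71537642, minus strand, match at -130 to -115: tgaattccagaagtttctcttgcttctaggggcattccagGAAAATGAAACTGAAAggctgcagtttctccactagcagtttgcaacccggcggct
Stat2, chr10:128270248-128270325, plus strand, match at -222 to -213: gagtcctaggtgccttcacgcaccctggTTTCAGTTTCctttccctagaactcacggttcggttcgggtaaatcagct
Igtp, chr11:58199482-58199555, plus strand, match at -34 to -25: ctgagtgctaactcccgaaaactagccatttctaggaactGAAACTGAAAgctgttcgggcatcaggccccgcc

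In Isg15, 3 matches overlapped in a single run. Over the genes tested that had an entry in the promoter table, 3.29% of 12674 held the element within 250 bases upstream. It stood in 7.95% of the 1447 genes that were higher in the interferon-high libraries and in 28 of 1568 that were lower (1.79%). Of the interferon effector genes listed below, 24 of 58 held it (41.4%), and of the interferon-induced GTPases, 11 of 12 (91.7%). The gamma-activated site, searched as TTCNNNGAA, which is its own reverse complement, stood in 7 of those 12 GTPase genes (58.3%) and in 913 of the 12674 (7.20%). The first element stood in 0 of 5 conjugation genes, 1 of 15 sensors and 3 of 17 signalling genes. The windows of Irf7, Irf9, Tap1, Psmb9, Xaf1, Ddx58, Ifi44 and Cmpk2 held no match to it, and no sequence was printed for Usp18, Rtp4 and Mx2. A match is a description of the letters and not a measured binding site.

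Isg15 (ENSMUSG00000035692, chr4:156199424-156200818, minus strand, GRCm38) was at 2.93 to 11.9 CPM in the interferon-high libraries, with a median of 3.62 and a mean of 4.17 ± 1.81 CPM (SD, n = 47). Below the median it was at 0.146 to 1.39 CPM, with a median of 0.980 and a mean of 0.974 ± 0.252 CPM (SD), and between them at 1.40 to 2.92 CPM. The ranking had no gap at the limit. The 3 libraries just inside it had 2.96, 2.95 and 2.93 CPM, and the 3 just outside had 2.92, 2.89 and 2.87 CPM. Only 18 of the 47 libraries were above 4 CPM, and 3 of them stood apart, DO098 at 11.9, DO487 at 11.3 and DO368 at 7.31 CPM.

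**Figure D1:**
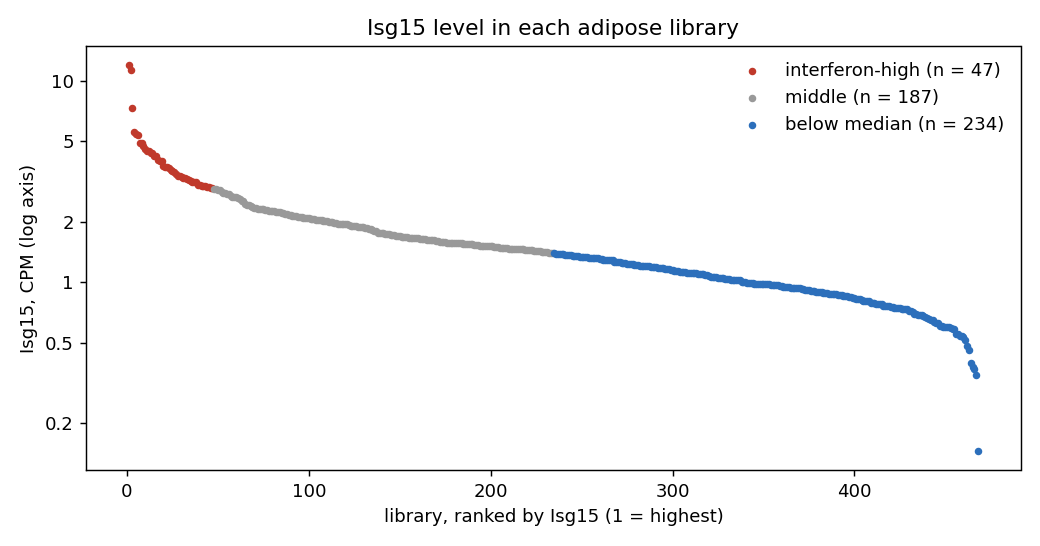
Isg15 in CPM (log axis) against the rank of each library, with 1 point per library. The 47 interferon-high libraries (red) join the middle libraries (grey) without a gap, and 3 of them lie above 7 CPM.

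Of 18379 genes tested with edgeR, 1960 were higher (10.7% of those tested) and 2008 lower (10.9%) in the interferon-high libraries, with the presence or absence of Ddx3y counts as a covariate. Ddx3y is a gene of the Y chromosome, and it stood in for the sex that the labels do not give. When libraries were ranked by Isg15 CPM with TMM-scaled totals, 6.15% of genes were higher and 4.16% lower, so that 59.7% of the calls were higher in place of 49.4%. The 16 genes with the lowest p all belonged to lists of interferon genes. These lists were written with earlier results of these data known, so the counts by list are a description. Of 71 interferon effector genes tested, 66 were higher and 0 lower (median log2 fold change 0.81, against -0.01 over all genes tested), and of 6 genes of the ISG15 conjugation system 5 were higher. Since libraries are bulk tissue, more cells of a type and more RNA per cell cannot be told apart for any gene below.

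The ISG15 conjugation genes moved with Isg15 itself. Usp18 (ENSMUSG00000030107, chromosome 6), the protease that removes ISG15 from proteins and also restrains the interferon receptor, was at 2.92 to 21.7 CPM (median 5.32) in the interferon-high libraries and at 0.750 to 3.71 CPM (median 1.89) below the median. In 45 of the 47 libraries its level exceeded every library below the median, which left only 2 libraries in the range of the other group. The log2 fold change was 1.57 ± 0.06 (SE, edgeR adjusted p = 4.71e-68). Ube2l6, the enzyme that carries ISG15, was at 17.9 to 46.9 CPM (median 24.2) against 6.64 to 36.3 CPM (median 15.99), a log2 fold change of 0.62 ± 0.04 (edgeR adjusted p = 8.90e-35). Herc6, a ligase that attaches ISG15 in the mouse, was at 13.9 to 54.8 CPM (median 25.7) against 8.13 to 26.1 CPM (median 16.2). Uba7, the activating enzyme that starts the chain, was at 27.97 to 91.4 CPM (median 45.9) against 14.3 to 58.7 CPM (median 30.3). Both passed, with log2 fold changes of 0.67 and 0.52, and the groups overlapped for each of these last 3 genes. The exception was Herc3, a ligase of the same family, at medians of 21.2 and 20.8 CPM (log2 fold change -0.11 ± 0.06, edgeR adjusted p = 0.169).

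Among the effector genes, whose products act directly on viruses or on RNA, Ifit1 had the lowest p of all genes. Ifit1, which binds RNA whose cap marks it as foreign, was at 4.98 to 39.1 CPM (median 9.71) in the interferon-high libraries and at 1.06 to 7.43 CPM (median 2.73) below the median. In 42 of 47 libraries it lay above every library below the median (log2 fold change 2.00 ± 0.07, edgeR adjusted p = 8.84e-77). Rtp4, a protein that accompanies receptors to the membrane and is induced by interferon, was at 6.60 to 64.2 CPM (median 15.95) against 1.31 to 12.3 CPM (median 4.49), and 33 of 47 libraries exceeded the whole other group.

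The oligoadenylate synthetases, which make the small messenger that switches on an RNA-cutting enzyme, held the largest fold change of the effector list. Oas3 was at 0.756 to 12.6 CPM (median 3.26) in the interferon-high libraries and at 0.0484 to 2.18 CPM (median 0.551) below the median, a log2 fold change of 2.64 ± 0.12 (edgeR adjusted p = 3.54e-60). Oas1g followed with a median of 4.36 against 0.644 CPM (log2 fold change 2.50 ± 0.14), Oas1a with 9.88 against 2.60 CPM (1.97 ± 0.10) and the related Oasl2 with 38.4 against 12.7 CPM (1.57 ± 0.07). Ifi44, which is not of this family, had medians of 6.06 and 1.89 CPM (1.93 ± 0.11), a fold change near that of Oas1a and of Ifit1. For Oas3 and Oasl2, 37 and 38 of the 47 libraries lay above all libraries of the other group, for Oas1g 27 and for Oas1a 23. Oas1a and Oas1g are close paralogs, and reads that fit both were divided between them by estimation, which makes their single values uncertain.

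Other effector genes differed by less. Adar, which edits adenosines in double-stranded RNA, was at 32.4 to 86.8 CPM (median 49.2) against 14.9 to 51.7 CPM (median 31.4), and all 47 interferon-high libraries lay above the median of the other group (log2 fold change 0.58 ± 0.03, edgeR adjusted p = 5.08e-51). Trim30a, of a family of ubiquitin ligases, had medians of 29.8 and 15.7 CPM (0.89 ± 0.05), Phf11d 15.8 and 8.40 CPM (0.88 ± 0.05), and Cmpk2, a mitochondrial nucleotide kinase, 13.3 and 7.19 CPM (0.88 ± 0.05). Bst2, known as tetherin because it holds budding virus at the cell surface, was at 10.9 to 72.7 CPM (median 26.2) against 6.84 to 47.5 CPM (median 13.5). Its groups overlapped widely, since only 2 libraries exceeded the whole other group, though 45 of 47 lay above its median.

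In 5 of the 71 effector genes no difference passed the test. Ifi27l2a was at 1.28 to 1326 CPM (median 489.7) in the interferon-high libraries and 0.871 to 1500 CPM (median 368.8) below the median, so that both groups spanned the same wide range (edgeR adjusted p = 0.156). Ifi27 had medians of 256.1 and 214.9 CPM (edgeR adjusted p = 0.871), and Ifitm1, a membrane protein that hinders virus entry, 5.04 and 3.34 CPM (edgeR adjusted p = 0.484). Pnpt1, an RNA exonuclease of mitochondria, had medians of 25.6 and 25.1 CPM, and Tor1aip1, a protein of the nuclear envelope, 142.1 and 132.8 CPM. These last genes had fold changes of -0.05 ± 0.04 and 0.00 ± 0.02 on the log2 scale (edgeR adjusted p = 0.384 and 0.975).

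**Figure D2:**
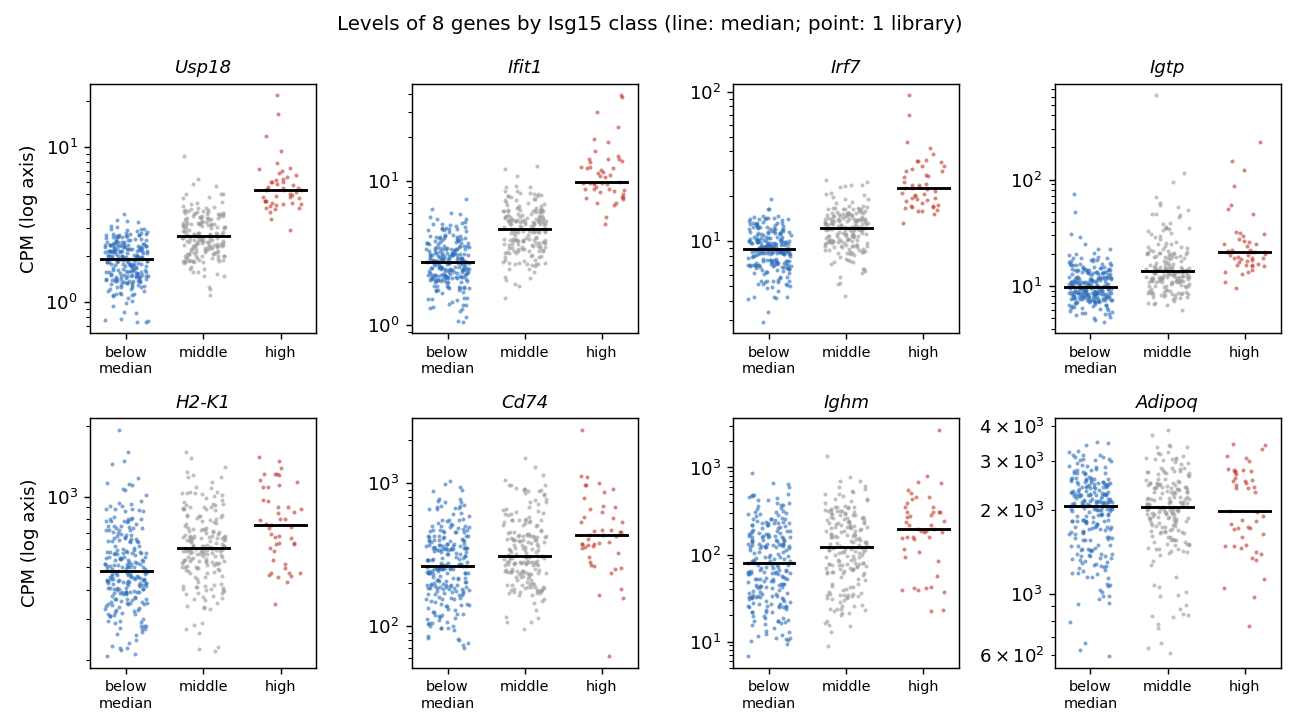
Levels of 8 genes in CPM (log axes) in the libraries below the median, the middle and the 47 interferon-high libraries, with 1 point per library and a line at each median. Usp18, Ifit1 and Irf7 separate most of the interferon-high libraries, H2-K1, Cd74 and Ighm shift with wide overlap, and Adipoq, with medians of 2074 and 1985 CPM, does not shift visibly.

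How many interferon genes were raised in a single library was counted over the 77 effector and conjugation genes tested. A gene counted as raised when its CPM lay above the 95th percentile of the libraries below the median, which by construction marks few genes in that group. Interferon-high libraries had 10 to 65 raised genes (median 43), the middle libraries 0 to 50 (median 10) and those below the median 0 to 43 (median 2). The libraries DO098 and DO487, with the most Isg15, had 65 and 64. DO309, which ranked 6 by Isg15 with 5.38 CPM, had only 10, with Ifit1 at 4.98 and Rtp4 at 6.60 CPM, the lowest level of both genes in the group. In the opposite direction, DO296, the library just below the median at 1.39 CPM of Isg15, had 43 raised genes.

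**Figure D3:**
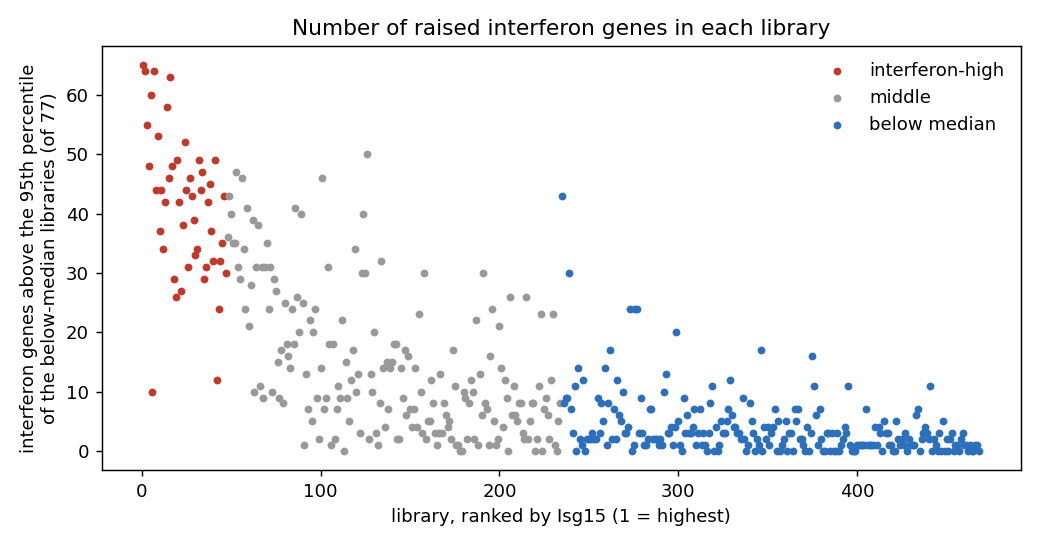
Number of the 77 interferon genes above the 95th percentile of the libraries below the median, against the Isg15 rank of each library, with 1 point per library. Interferon-high libraries (red) have a median of 43 genes, middle libraries (grey) 10 and libraries below the median (blue) 2, with single libraries that depart from their class.

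Cytosolic sensors of nucleic acids were higher as well. Of 19 genes tested, 15 were higher and 1 lower (median log2 fold change 0.47). Zbp1, which recognises nucleic acids in the Z form, was at 2.14 to 30.7 CPM (median 7.16) in the interferon-high libraries and 0.376 to 7.46 CPM (median 2.01) below the median, a log2 fold change of 1.81 ± 0.09 (edgeR adjusted p = 6.16e-50). The 3 helicases that detect viral RNA were all higher. Ddx58, which encodes RIG-I, was at 37.1 to 89.4 CPM (median 46.5) against 12.1 to 44.2 CPM (median 29.8), and 33 of 47 libraries lay above the whole other group. Ifih1, which encodes MDA5, had medians of 36.6 and 24.2 CPM and Dhx58, which encodes LGP2, 8.41 and 4.33 CPM. The gene that was lower was Mavs, the adaptor on which RIG-I and MDA5 converge, with a log2 fold change of -0.13 ± 0.04 (edgeR adjusted p = 0.0161). Its medians, 47.5 and 47.4 CPM, were almost the same. CPM values were not TMM-scaled while the fold changes were, so a difference this small depends on the scaling. Ticam1, Tbk1 and Irf3, an adaptor, a kinase and a factor that drive interferon production, did not pass.

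In the signalling chain, genes of the nuclear end differed and genes of the receptor mostly did not. Of 20 genes tested, 13 were higher and 0 lower, with a median of 0.18. Irf7, the factor that amplifies interferon production, was at 13.3 to 95.3 CPM (median 22.6) against 2.91 to 19.3 CPM (median 8.92), with 32 of 47 libraries above the whole other group (log2 fold change 1.45 ± 0.06, edgeR adjusted p = 1.27e-61). Irf9 was at 20.96 to 59.7 CPM (median 31.6) against 10.1 to 30.8 CPM (median 17.7), and its partner Stat2 at 29.7 to 90.5 CPM (median 46.4) against 13.5 to 46.2 CPM (median 26.6). Their log2 fold changes were 0.83 ± 0.04 and 0.76 ± 0.03, and 27 and 25 of the 47 libraries exceeded the other group altogether. Ifnar1, Ifngr1, Ifngr2, Ifnlr1, Jak1, Jak2 and Irf2, which are receptor chains, kinases and a repressor, did not pass. Ifnar1 had medians of 66.2 and 59.6 CPM (edgeR adjusted p = 0.144) and Ifngr1 192.5 and 188.01 CPM (edgeR adjusted p = 0.902).

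The interferons themselves could hardly be followed. Of 12 ligand genes looked for, Ifng was the 1 with a row in the table used here. It lay between 0 and 0.904 CPM in the interferon-high libraries (median 0.0548) and between 0 and 0.350 CPM below the median (median 0.0251), and it did not reach the minimum count for a test.

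The GTPases that interferon gamma induces, which attack the membranes around intracellular microbes, had the largest median of the lists, with 20 of 21 genes higher, 0 lower and a median log2 fold change of 1.12. Irgm1 was at 16.9 to 100.5 CPM (median 29.6) against 8.88 to 43.6 CPM (median 17.1), a log2 fold change of 0.89 ± 0.05 (edgeR adjusted p = 4.29e-41). Gbp3 had medians of 35.8 and 15.7 CPM (1.23 ± 0.08) and Irgm2 38.3 and 18.7 CPM (1.25 ± 0.08). Gbp10 was at 1.07 to 242.8 CPM (median 6.35) against 0.208 to 22.6 CPM (median 2.07), with a log2 fold change of 2.57 ± 0.17 (edgeR adjusted p = 1.78e-34). Its high end came from a few mice, with DO094 at 242.8, DO253 at 98.1 and DO370 at 91.2 CPM, and DO370, the highest library for Irgm2 at 346.9 CPM, ranked only 34 by Isg15 with 3.21 CPM. Gbp2b did not pass (edgeR adjusted p = 0.0660). Gbp10 overlaps Gm43302, and Irgm2 overlaps Igtp, so that reads of each pair may be shared.

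The effector and GTPase lists were also followed library by library. The level of a list in a library was taken as the mean log2(CPM + 0.1) over its tested genes. For the effectors, 45 of the 47 interferon-high libraries lay above the 95th percentile of the libraries below the median, and for the GTPases 27 did. Both were above it in 26 libraries, and in 19 the effectors alone were. Among the middle libraries, 41.7% were above it for the effectors and 24.6% for the GTPases. This percentile depends on the spread below the median, where GTPase levels reached 4.91 (median 3.17) and effector levels 3.99 (median 3.26). The counts therefore do not compare the size of both responses. The group medians differed by 0.85 for the effectors and 0.92 for the GTPases. Above the median of the other group lay 47 and 46 of the 47 libraries.

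Chemokines that recruit leukocytes were higher in 9 of 10 cases (median log2 fold change 0.58). Ccl8 was at 1.31 to 37.4 CPM (median 7.33) against 0.188 to 30.6 CPM (median 2.44), a log2 fold change of 1.27 ± 0.20 (edgeR adjusted p = 1.48e-07). Ccl12 had medians of 0.883 and 0.313 CPM (1.25 ± 0.17), Ccl5 2.03 and 1.09 CPM (1.01 ± 0.15), and Cxcl9, a ligand of CXCR3, 40.2 and 27.5 CPM (0.50 ± 0.09). The groups overlapped in every one of these genes, with at most 6 libraries above the whole other group. Cxcl11 did not pass.

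Antigen presentation followed. In the MHC class I pathway, which shows peptides from inside the cell, 21 of 25 genes were higher and 0 lower (median 0.47). Tap1, the peptide transporter, which also stands in the effector list, was at 23.6 to 125.3 CPM (median 40.4) against 9.62 to 69.9 CPM (median 23.4), a log2 fold change of 0.81 ± 0.06 (edgeR adjusted p = 3.60e-29). Psmb8 and Psmb9, subunits of the immunoproteasome, had medians of 46.1 against 30.7 CPM and 19.4 against 12.2 CPM, with log2 fold changes of 0.66 and 0.67. H2-T24, a class I relative, had medians of 16.2 and 8.54 CPM (0.90 ± 0.08). Class I genes are near-identical copies of one another and differ between founder strains, so that their single values are uncertain.

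All 10 MHC class II genes were higher, with a median of 0.73. Cd74, the invariant chain, was at 61.4 to 2361 CPM (median 432.3) against 70.5 to 1031 CPM (median 264.8), a log2 fold change of 0.69 ± 0.09 (edgeR adjusted p = 5.93e-11). H2-Ab1 had medians of 136.9 and 79.5 CPM (0.74 ± 0.10), H2-DMa 14.5 and 9.23 CPM (0.68 ± 0.09) and H2-Oa 0.698 and 0.328 CPM (1.09 ± 0.15). For Cd74, 1 interferon-high library lay below every library of the other group and 3 lay above all of them, and the rest lay within its range.

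Markers of immune cells were higher alongside. Of 20 macrophage genes, 16 were higher (median 0.52), of 14 T cell genes 13 (0.85), of 11 NK cell genes 9 (0.89) and of 12 B and plasma cell genes 11 (0.72). None of them was lower, and 4 of 8 plasmacytoid dendritic cell genes and 2 of 5 neutrophil genes were higher. Summed over the list, macrophage markers were at 1055 to 10517 CPM in the interferon-high libraries and 343.3 to 8346 CPM below the median, with medians of 2134 and 1441. B and plasma cell markers summed to 36.2 to 6189 CPM (median 338.04) against 14.4 to 1665 CPM (median 133.7), T cell markers to 11.1 to 175.97 CPM (median 34.2) against 4.21 to 99.8 CPM (median 21.5) and NK cell markers to 3.83 to 35.3 CPM (median 12.03) against 1.03 to 23.1 CPM (median 6.57). No defining marker of these cells was at 0 throughout either group, and their part in the interferon result was looked at by adding marker genes to the model, below.

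Within the macrophage list, Fcgr1, a high-affinity receptor for antibody, differed most clearly, at 2.07 to 31.3 CPM (median 6.06) against 0.409 to 24.6 CPM (median 2.45), a log2 fold change of 1.18 ± 0.14 (edgeR adjusted p = 4.28e-14). The complement genes C1qa, C1qb and C1qc had log2 fold changes of 0.53, 0.55 and 0.51. Cd163, Trem2, Gpnmb and Spp1 did not pass, of which Trem2, Gpnmb and Spp1 mark the lipid-laden macrophages of obese fat, and Trem2 had medians of 19.04 and 24.9 CPM (edgeR adjusted p = 0.748). Cytotoxic genes were among the NK cell genes that passed. Prf1 (perforin) was at 0.0504 to 2.63 CPM (median 0.753) against 0.0239 to 1.49 CPM (median 0.334), a log2 fold change of 1.17 ± 0.14, and Gzma (a granzyme) had medians of 0.996 and 0.442 CPM (1.20 ± 0.17). In T cells, Trbc1, Cd4, Lck and Cd3g had log2 fold changes of 0.94, 0.91, 0.86 and 0.93.

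Immunoglobulin genes varied widely within both groups. Igkc, the kappa light chain constant region, was at 4.52 to 2628 CPM (median 43.3) against 1.18 to 500.8 CPM (median 15.9), a log2 fold change of 1.84 ± 0.26 (edgeR adjusted p = 6.23e-10). Jchain, which joins antibodies into polymers, had medians of 15.5 and 5.32 CPM (1.596 ± 0.26), Mzb1 0.953 and 0.388 CPM (1.58 ± 0.23) and Ighm 197.98 and 80.7 CPM (1.13 ± 0.19). Igkc was highest in DO098, which also had the most Isg15, at 2628 CPM, and then in DO109 at 1129 and DO414 at 877 CPM. With the 3 highest Isg15 libraries DO098, DO487 and DO368 left out, the log2 fold change of Igkc was 1.33 in place of 1.84.

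Because immune markers moved with Isg15, the comparison was run with such genes in the model. With Adgre1, the gene of the macrophage antigen F4/80, as a covariate, 3.51% of genes were higher and 1.53% lower. With Adgre1, Trac, Cd79a and Klrk1 together, 1.18% were higher and 0.0925%, or 17 genes, lower. This second model was chosen after the data had been seen. Of the 1957 genes called higher and testable in that model, 10.6% were called again, and of the 2008 called lower, 8 (0.398%). Of those called again as higher, 96 belonged to the interferon lists, 15 more to the MHC lists, 6 to other lists and 90 to none. Absence from the lists does not make a gene unrelated to interferon.

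The interferon lists differed in how many calls they held in these models. Effector genes went from 66 higher of 71 to 65 with Adgre1 and 60 with all of the immune genes, and their median log2 fold change from 0.81 to 0.64 and 0.54. Of the GTPases, 20 and 18 of 21 were still higher, with medians of 1.14 and 0.85. The signalling genes went from 13 higher of 20 to 7 and 6, with medians of 0.18, 0.08 and 0.03, the chemokines from 9 of 10 to 5 and 3 (0.58, 0.41 and 0.16) and the sensors from 15 of 19 to 9 and 7 (0.47, 0.16 and 0.12). Usp18 had a log2 fold change of 1.47 (edgeR adjusted p = 1.37e-52) and Ifit1 of 1.93 (edgeR adjusted p = 8.46e-62) with all of the immune genes added. With the same model, 0 of the 10 class II genes, 0 of the T cell genes and 0 of the B and plasma cell genes passed there, and Cd74 had a log2 fold change of 0.12 (edgeR adjusted p = 0.690). Of the NK cell genes, 1 passed, with a median of 0.29 in place of 0.89. The covariates Trac, Cd79a, Klrk1 and Adgre1 are themselves genes of T cells, B cells, NK cells and macrophages. Calls in the lists of those cells therefore cannot be judged apart from the choice of covariates. Class I had 16 of 25 higher (median 0.29) and the macrophage list 4 of 20, among which Fcgr1 had a log2 fold change of 0.71 (edgeR adjusted p = 5.76e-10). Adgre1 itself was at 27.3 to 470.05 CPM (median 62.3) against 9.05 to 336.1 CPM (median 43.2). More immune cells and a stronger response per cell cannot be told apart in these models.

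**Figure D4:**
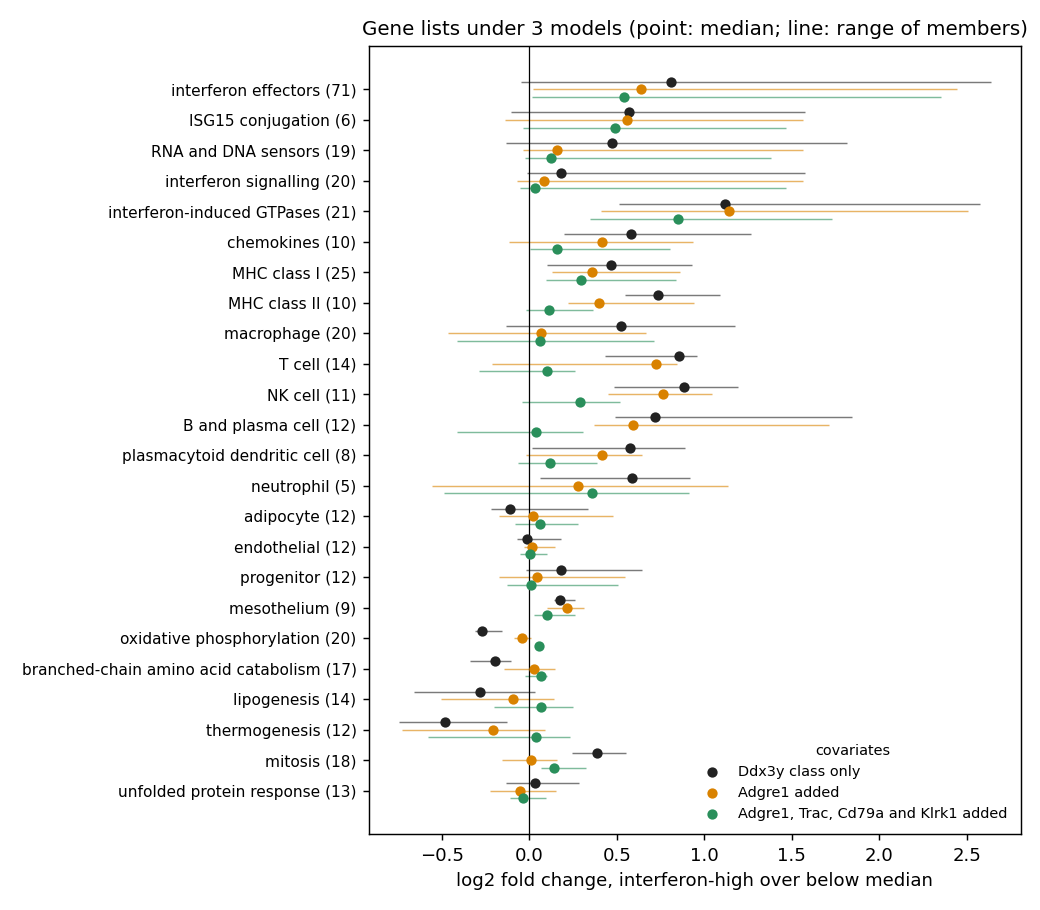
Log2 fold change between interferon-high libraries and libraries below the median for each gene list (number of genes tested in brackets) under 3 models, with the median as a point and the range of the members as a line. The effector median goes from 0.81 (black) to 0.64 with Adgre1 (orange) and 0.54 with all of the immune genes (green), the GTPase median stays at 0.85 or more, and the class II, T cell and B cell medians fall to 0.11 or less with all of the immune genes.

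Of 12 adipocyte marker genes, 0 were higher and 2 lower (median -0.11). Within the Ddx3y classes, 4 were lower and 1 higher without Ddx3y counts, and 0 were called with them. Pnpla2, the first lipase of fat breakdown, was at 766 to 3071 CPM (median 2081) against 883 to 3997 CPM (median 2206), a log2 fold change of -0.21 ± 0.07 (edgeR adjusted p = 0.0247), and Slc2a4, the insulin-responsive glucose transporter, had medians of 136.5 and 154.1 CPM (-0.22 ± 0.08, edgeR adjusted p = 0.0327). With Adgre1 in the model neither passed and both values turned positive, at 0.02 and 0.03. Endothelial, mesothelial and progenitor markers differed in 1 of 12, 1 of 9 and 4 of 12 genes. The progenitor count was led by Ly6a (Sca-1), itself known to respond to interferon, with medians of 113.6 and 69.1 CPM (log2 fold change 0.64 ± 0.05, edgeR adjusted p = 7.85e-28).

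Many metabolic genes were lower by fold change. In oxidative phosphorylation, the mitochondrial chain that makes ATP, 19 of 20 genes were lower and 0 higher (median -0.27), in the breakdown of branched-chain amino acids 10 of 17 (median -0.19), in lipogenesis 8 of 14 (median -0.28) and in the thermogenesis list 6 of 12 (median -0.48). Atp5b, a subunit of the ATP synthase, was at 879 to 2703 CPM (median 1320) against 556.9 to 3455 CPM (median 1455), a log2 fold change of -0.28 ± 0.07 (edgeR adjusted p = 0.00270). Elovl6, which lengthens fatty acids, was at 15.8 to 1130 CPM (median 76.5) against 14.6 to 2098 CPM (median 152.8), a log2 fold change of -0.66 ± 0.20 (edgeR adjusted p = 0.00907). Fasn, the fatty acid synthase, had medians of 5494 and 7211 CPM (-0.45 ± 0.13), Me1, which supplies its NADPH, 595.6 and 796 CPM (-0.40 ± 0.11) and Dld, a subunit shared by several dehydrogenase complexes, 215.6 and 243.7 CPM (-0.34 ± 0.07). For every gene of this paragraph the groups overlapped over nearly their whole range. With Adgre1 in the model, 0 genes of these 4 lists were called.

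The comparison was repeated within each Ddx3y class. Among the libraries without Ddx3y counts, 22 of them interferon-high, 2524 genes were higher (13.7%) and 3033 lower (16.5%). Among those with Ddx3y counts, 25 of them interferon-high, 3.25% of genes were higher and 0.664% lower. Oxidative phosphorylation had 20 of 20 genes lower without Ddx3y counts (median -0.58) and 0 of 20 with them (median -0.03). For the thermogenesis list the counts were 11 and 0 of 12, with medians of -1.27 and -0.01. For the breakdown of branched-chain amino acids they were 16 and 0 of 17 (medians -0.34 and -0.04), and for lipogenesis 8 and 1 of 14 (medians -0.49 and -0.17). The mitosis genes, 11 of 18 higher over both classes, were higher in 18 of 18 without Ddx3y counts (median 0.70) and in 0 of 18 with them (median 0.13). Macrophage genes were higher in 18 of 20 without Ddx3y counts (median 0.65) and in 3 of 20 with them (median 0.29). T cell genes went the other way, at 7 and 12 of 14 (medians 0.47 and 1.14). NK cell genes were higher in 9 and 8 of 11, and B and plasma cell genes in 5 and 8 of 12.

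The difference between the classes was tested by an interaction term, which was positive in 913 genes (4.97%) and negative in 470 (2.56%). A positive term means a fold change that was higher in the libraries with Ddx3y counts. It passed in 17 of 20 oxidative phosphorylation genes (median 0.54) and 7 of 12 thermogenesis genes (median 1.22). It passed in only 3 of 17 genes of branched-chain amino acid breakdown (median 0.30) and 1 of 14 lipogenesis genes (median 0.30), and in 0 of 18 mitosis genes (median -0.55). It also passed in 0 of 20 macrophage genes (median -0.30) and 0 of 14 T cell genes (median 0.65). Cidea, a lipid droplet protein of brown and white fat, had log2 fold changes of -1.64 without and -0.06 with Ddx3y counts (interaction 1.57, edgeR adjusted p = 0.0117). Of the effector genes, 2 of 71 had a passing term, both negative, and of the conjugation genes and the GTPases none did. Effector genes were higher in 63 of 71 cases without Ddx3y counts and 59 of 71 with them, with medians of 0.77 and 0.75, and GTPases in 19 and 20 of 21. Signalling genes were higher in 13 of 20 without and 7 of 20 with Ddx3y counts, sensors in 15 and 8 of 19 and chemokines in 9 and 5 of 10. The interaction passed in 0 signalling genes, 1 sensor gene and 1 chemokine gene. Ifit1 had a log2 fold change of 2.00 in both classes.

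Of the 6 interaction genes named by rule, 3 had low medians and a few high libraries. C1rb, a complement protease gene, had log2 fold changes of -2.01 without and 3.10 with Ddx3y counts (interaction 5.11 ± 0.87, edgeR adjusted p = 0.000258). Its median was 0.227 CPM in the interferon-high libraries and 0.159 CPM below the median, while its highest values were 94.9 and 68.6 CPM, and 1 interferon-high library lay above the whole other group. Cyp4a14 (interaction 3.82 ± 0.71) and Mup11 (6.29 ± 1.28) likewise had low medians, 0.193 and 0.252 CPM for Cyp4a14 and 0.0999 and 0.189 CPM for Mup11. Eaf2 (0.85 ± 0.16), Shmt1 (0.73 ± 0.14), an enzyme of one-carbon metabolism, and Mettl24 (-0.76 ± 0.15) were detected throughout and had near-equal medians in both groups.

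Outside the gene lists, 1732 genes were higher and 1962 lower. The genes named here had a mean of at least 1 CPM, passed with limma and kept their sign in both Ddx3y classes. The 12 of them with the largest positive fold changes were 8 immunoglobulin genes (among them Ighg2b, Ighg2c, Igkv1-110, Igkv10-96, Igha and Iglv1), the antibody receptor gene Fcgr4, and BC023105, Gm43302 and Gm4841. Ighg2b was at 0 to 655.6 CPM (median 3.67) against 0 to 47.96 CPM (median 0.806), a log2 fold change of 3.18 ± 0.34 (edgeR adjusted p = 1.05e-15), and Ighg2c, with a maximum of 1289 CPM in DO098, had 2.99 ± 0.38 (2.37 without the 3 highest Isg15 libraries). Fcgr4, the receptor for those antibody classes, was at 0.479 to 74.5 CPM (median 1.96) against 0.0511 to 8.0 CPM (median 0.645), with 42 of 47 libraries above the median of the other group (log2 fold change 2.00 ± 0.16, edgeR adjusted p = 4.41e-26). With all of the immune genes in the model, Fcgr4 had a log2 fold change of 1.14 (edgeR adjusted p = 5.36e-11) while Ighg2b had 1.40 (edgeR adjusted p = 0.0547), and of the other 10 only BC023105 and Gm4841 passed. Variable-region genes of antibodies are close copies, and their reads may be misassigned.

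On the lower side the 12 genes by the same rule were Slc2a5, Adcy10, Cyp2b10, Ybx2, Tmem56, Gm11837, Rdh16, 4921507P07Rik, Fam186a, mt-Rnr1, Phospho1 and Ttc25. Slc2a5, the fructose transporter, was at 0.0255 to 43.8 CPM (median 0.935) against 0 to 177.6 CPM (median 2.60), a log2 fold change of -1.27 ± 0.37 (edgeR adjusted p = 0.00726). Cyp2b10, a cytochrome of drug metabolism, was at 0.227 to 7.50 CPM (median 1.63) against 0.215 to 107.2 CPM (median 2.83), and mt-Rnr1, a mitochondrial ribosomal RNA, had medians of 848 and 1056 CPM. In all 12 the highest single library lay below the median of Isg15, and none of the 12 passed with all of the immune genes in the model.

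Of the 90 genes outside the lists that were also called with all of the immune genes, 51 were called with the same sign in the middle libraries. The lowest adjusted p there, looked up after the values had been seen, belonged to Rnf213, a large ubiquitin ligase, at 96.5 to 238.7 CPM (median 137.8) against 40.2 to 134.95 CPM (median 80.5). In 26 of 47 interferon-high libraries it exceeded the whole other group (log2 fold change 0.71 ± 0.04, edgeR adjusted p = 3.44e-42). Ly6e, which hinders the entry of several viruses, had medians of 314.8 and 182.9 CPM (0.74 ± 0.04), Lgals9, a secreted lectin, 69.9 and 41.9 CPM (0.73 ± 0.05) and Siglec1, a sialic acid receptor of macrophages, 59.3 and 28.4 CPM (0.98 ± 0.08). They were followed by Ogfr, Slfn4, Zc3hav1, Gm5970, Il18bp, Fcgr4, BC023105 and Ifi208. Of these, Zc3hav1 encodes an antiviral RNA-binding protein and Il18bp a decoy that neutralises interleukin 18. On the lower side the 8 genes called again, Gm37625, C2cd2, Dnajb4, Srms, Lemd3, B230219D22Rik, Gm10020 and Tcf12, belonged to no list and none was called in the middle libraries. Of these, C2cd2, Lemd3, B230219D22Rik and Tcf12 had slightly higher medians in the interferon-high libraries, at 53.1, 16.1, 76.1 and 80.3 CPM. Below the median they were at 51.2, 15.6, 75.1 and 77.9 CPM, with log2 fold changes of only -0.11, -0.09, -0.09 and -0.06. The others had lower medians in the interferon-high libraries. Since CPM values were not TMM-scaled while the fold changes were, small differences can have opposite signs in both measures.

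The middle libraries, from mice that were in neither group, gave a second look at the same genes through the slope of each gene on log2 Isg15 CPM. In them 2174 genes were called with a positive slope (11.8%) and 1637 with a negative slope (8.91%), at an edgeR adjusted p under 0.05. Of the 1960 genes higher in the interferon-high libraries, 1892 had a slope of positive sign, called or not (96.5%), and 1125 were called (57.4%), which was 51.7% of the 2174. Of the 2008 lower genes, 1821 had a slope of negative sign (90.7%) and 799 were called (39.8%), which was 48.8% of the 1637. Ifit1 had a slope of 0.95 ± 0.11 (edgeR adjusted p = 2.25e-12) and Usp18 one of 0.85 (edgeR adjusted p = 2.83e-12), both per doubling of Isg15.

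By list, the slopes in the middle libraries were called as follows, with no test of one list against another. Of the 71 effectors, 51 were called with a positive and 1 with a negative slope (median 0.46), and of the GTPases 17 of 21 with a positive one (median 0.96). B and plasma cell genes, 11 of 12 higher in the interferon-high libraries, had 0 called slopes in the middle (median 0.32), and T cell genes 2 of 14 (median 0.41). Macrophage genes passed in 17 of 20 and mitosis genes in 18 of 18 (medians 0.73 and 0.94), and oxidative phosphorylation genes in 18 of 20 with a negative slope (median -0.41). Of the adipocyte markers, 8 of 12 were called with a negative slope (median -0.27). With Adgre1 in the model of the middle libraries, 1.58% of genes were called with a positive slope and 13 genes with a negative one.

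**Figure D5:**
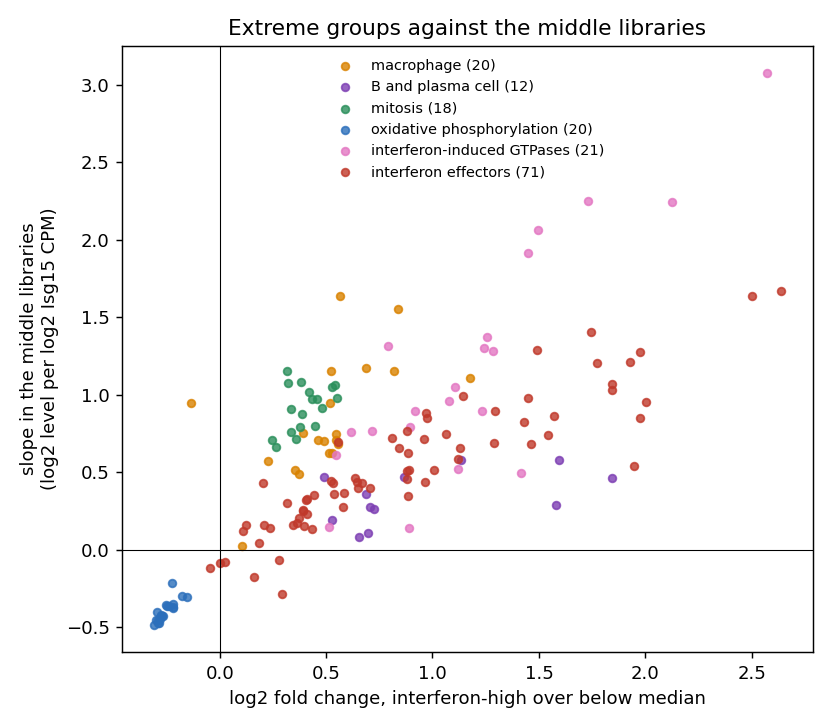
Log2 fold change between interferon-high libraries and libraries below the median (x axis) against the slope on log2 Isg15 CPM in the middle libraries (y axis), with 1 point per gene of 6 lists. Effector and GTPase genes rise along both axes, B and plasma cell genes have a median slope of 0.32 and effectors one of 0.46, mitosis genes lie higher on the y axis (median slope 0.94) and oxidative phosphorylation genes are negative on both.

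The genes next to Isg15 on chromosome 4 were examined for the 11 with starts within 200 kb of it. Tnfrsf4, Agrn, Tnfrsf18, AW011738 and Plekhn1 were higher and the other 6 did not pass. Agrn, the nearest of them on one side, had medians of 78.97 and 61.9 CPM (log2 fold change 0.21 ± 0.05, edgeR adjusted p = 0.000133). AW011738, on the other side, had medians of 1.86 and 1.37 CPM (0.38 ± 0.07, edgeR adjusted p = 1.85e-06). Both were still called with all of the immune genes in the model, with log2 fold changes of 0.22 and 0.40, whereas Tnfrsf4, Tnfrsf18 and Plekhn1, of which the first pair are receptors of activated T cells, were not. No neighbour came near the size seen in Usp18.

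No difference passed the test in the presence of Ddx3y counts or in mouse number, and library number was not tested. Ddx3y counts were present in 25 of 47 interferon-high libraries (53.2%) and in 51.7% of those below the median, an odds ratio of 1.06 (two-sided Fisher's exact test, p = 0.874). The median mouse number differed by -12.5 (two-sided permutation test of 100000 resamples, p = 0.634). Since the labels name no batch, libraries were also split into 5 consecutive blocks by mouse number and by library number. In the 10 blocks the log2 ratio of the group medians was 1.25 to 1.67 for Usp18 and 1.70 to 2.30 for Ifit1, and each block held 6 to 15 interferon-high libraries. From the lowest library numbers to the highest, the blocks held 15, 9, 8, 9 and 6 of them, and by mouse number 14, 9, 6, 8 and 10. The share of the ribosomal transcript CT010467.1 exceeded 10 percent of the counts in 2 libraries, both below the median.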

How the data were processed

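The authors deposited expected counts per gene, estimated with EMASE as run by GBRS from reads aligned to a transcriptome that joined the founder strains (versions not given in the sources used here), with the build GRCm38 per the labels. They also deposited variance-stabilized values on a log2 scale, which were not used here, and removed transcripts with few reads. Of the expected counts, 66.8% were whole within 1e-06. Whether counting used strand is not given in the sources used here, so reads of overlapping genes cannot be told apart. The 468 libraries fell into 47 interferon-high, 187 middle and 234 below the median. Library totals were 35.3 M to 138 M (median 82.0 M), and low genes are limited by counting error.

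Counts were rounded and genes with 10 or more counts in at least a share of 0.5 of the 468 libraries were kept, 18380 of 23180, of which Isg15 was left out of the tests. Tests were two-sided edgeR (4.0.16) quasi-likelihood tests in R 4.3.3 with TMM scaling, presence of Ddx3y counts as covariate and Benjamini-Hochberg adjustment over all genes tested, with a threshold of 0.05. Fold changes are log2 with SE. CPM levels were computed from the raw library totals, without TMM scaling. Added covariate genes entered as log2(CPM + 0.1) and were then not tested themselves. Alternatives used limma 3.58.1, DESeq2 1.42.0, other group sizes, rankings, filters, caps and covariates. The models with added covariate genes were fitted with edgeR as well. Their adjusted p-values without the covariate genes, the list levels, the block splits and the promoter search were computed from the fits and counts. This used Python 3.11.15, numpy 2.4.6, pandas 2.3.3 and scipy 1.17.1. Steps across genes were tested on simulated data. Gene positions were compared with GENCODE M21, which held all 23180 identifiers.

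Members and gene lists were chosen with earlier results of these data known. Some genes are in more than 1 list, such as Usp18, Tap1 and Trex1. Named genes were the 12 effectors and 2 to 4 members of every other list with the lowest p, effectors and conjugation genes that did not pass, the 12 largest changes in each direction outside the lists among genes of at least 1 CPM, neighbours of Isg15 and the 6 interactions with the lowest p. Mavs, Ticam1, Tbk1, Irf3, the receptor and kinase genes, Ifng, Gbp2b, Cxcl11, H2-K1, Cd163, Trem2, Gpnmb, Spp1, Adgre1, Adipoq, Plin1 and the genes from Rnf213 to Tcf12 were named after their values were seen. Interferon-high was defined by measurement, so p-values describe variation together with Isg15 and not the effect of a treatment.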

Additional observations from a re-analysis of the deposited data

Results flagged for a closer look

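For 1383 genes (7.52% of those tested) the difference between interferon-high libraries and libraries below the median itself differed between the Ddx3y classes. The 6 with the lowest p by the edgeR interaction term are given here. Of them, C1rb, Cyp4a14 and Mup11 had low medians and a few high libraries. The term was 5.11 for C1rb, 3.82 for Cyp4a14, 6.29 for Mup11, 0.85 for Eaf2 and 0.73 for Shmt1, each with a fold change that was negative without Ddx3y counts and positive with them. For Mettl24 it was -0.76, with log2 fold changes of 0.33 without and -0.43 with Ddx3y counts. The adjusted p ranged from 0.000258 (C1rb) to 0.00403 (Mup11).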

How the results depend on the processing

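Over all alternatives, 64 to 71 of the 77 effector and conjugation genes passed, 71 of them in the main comparison, and all that passed were higher. The share of all genes tested that was called depended more on the settings. It was 21.59%, and became 5.04% with Adgre1 added, 1.27% with Adgre1, Trac, Cd79a and Klrk1 added (a choice made after seeing the data), 10.31% when ranked by TMM-scaled CPM, 10.84% with 24 and 42.43% with 94 high libraries, 3.92% in the libraries with Ddx3y counts alone and 53.87% for a slope over all libraries. Of the calls, 69.58% were higher with Adgre1, 92.7% with the immune genes, 59.7% by TMM ranking, 68.98% with 24 libraries and 83.1% with Ddx3y counts. With limma, DESeq2, no filter, no Ddx3y covariate, number blocks, capped counts or libraries that stood apart left out (the 3 highest libraries also after seeing the data), 17.19% to 22.88% of genes were called. The slope in the middle libraries gave 20.74%, and 1.65% with Adgre1. The interaction gave 7.52%, and 15.99% with 94 high libraries. The odds ratio for Ddx3y was 0.909 by TMM ranking and did not pass in any setting.

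Of the log2 fold changes of the 150 named genes, 33 values turned sign, and the cause was not tested. With the immune genes added these were Spib -0.062, Pnpla2 0.061, Slc2a4 0.094, Atp5b 0.034, Ndufs1 0.037, Ndufa9 0.042, Ndufb8 0.048, Mmut 0.013, Bckdhb 0.0077, Fasn 0.0040, Acot2 0.050, Cidea 0.022, Slc2a5 0.65, Adcy10 0.33, Ybx2 0.25, Gm11837 0.18, 4921507P07Rik 0.11, Ttc25 0.21 and C1rb -0.70. With Adgre1 alone they were Pnpla2 0.018, Slc2a4 0.032 and C1rb -0.57. In the libraries without Ddx3y counts they were S100a9 -1.36, C1rb -2.01, Cyp4a14 -1.78, Eaf2 -0.39, Mettl24 0.33 and Mup11 -4.05, and in those with Ddx3y counts Acot2 0.015. Tor1aip1 was -0.042 with 94 high libraries and -0.030 as a slope over all, C1rb -1.15 without libraries of extreme TMM factor, and Cyp4a14 -0.41 with limma. No paired analysis was possible because every mouse gave a single library and no replicate number was shared between groups.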
